A study of Mus musculus with 27 samples.

Results

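Small-RNA libraries made from 3 kinds of neuron of the suprachiasmatic nucleus (SCN), the central circadian clock of the mammalian brain, were compared with libraries of the whole nucleus. All samples came from C57BL/6 mice, with no allele or treatment named for any of these groups. The neurons carry the names of their peptides: AVP (vasopressin), VIP (vasoactive intestinal peptide) and CCK (cholecystokinin). Each kind gave 2 libraries, and whole SCN tissue gave 2. These 8 libraries, 6 of neurons and 2 of tissue, were taken by their titles from the 27 of the series. How the neurons were collected, how many cells or animals each library holds and at what hour the tissue was taken are not given in the sources used here. The labels do not say whether replicates are separate animals, so p-values measure the spread between these libraries, which may be technical. The neuron libraries and the SCN libraries belong to different sub-experiments, so cell source and batch cannot be told apart by this comparison. Another 2 sets of whole-SCN libraries were therefore read beside it: 11 from a time course between 2 and 42 h of zeitgeber time, and 2 titled CT18_CTRL, taken at 18 h of circadian time. Together with the 2 SCN libraries they make 15 libraries of whole SCN.

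MicroRNAs (miRNAs) are short RNAs that a protein of the Argonaute family carries to messenger RNAs. They are cut from a hairpin, which can give a mature miRNA from its 5′ arm (5p) and from its 3′ arm (3p). Bases 2 to 8 of the mature miRNA, the seed, pair with the target, so miRNAs with the same seed can reach overlapping sets of targets. Brain tissue mixes neurons with glia, vessel cells and blood cells, each with miRNAs typical of it. The peptide messenger RNAs are not measured by small-RNA sequencing, so the identity of the AVP, VIP and CCK neurons could not be checked here.

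Levels are given in CPM, counts per 1000000 miRNA reads of the library, and they are shares of a library and not amounts per cell. Depth was 469808 to 2812318 reads in the neuron libraries and 2245915 and 3585377 in the SCN. Of 844 miRNAs in the series, 690 were listed in at least 1 of the 8 libraries and 374 reached 10 CPM in at least 2 of them and were tested. A miRNA was called where limma's adjusted p for the mean of the 3 neuron types against the SCN was below 0.05. Differences are given on the scale of log2(CPM + 2).

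The sequences in 3 sets carry most of what follows. They are mature miRNAs from RefSeq (GRCm38.p6), 5′ to 3′, with the seed in capitals, and 320 of the 374 tested miRNAs (85.6%) had an entry. The first set holds members of 3 families whose seeds are shared while their levels moved apart between neurons and tissue.
miR-125a-5p: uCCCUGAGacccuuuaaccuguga
miR-125b-5p: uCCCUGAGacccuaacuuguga
miR-99b-5p: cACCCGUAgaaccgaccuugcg
miR-99a-5p: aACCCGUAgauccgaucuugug
miR-100-5p: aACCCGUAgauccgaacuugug
let-7e-5p: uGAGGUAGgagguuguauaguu
let-7c-5p: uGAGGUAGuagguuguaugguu

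The next set holds miRNAs that were higher in the neuron libraries, with the 5p arm of the miR-139 hairpin beside its 3p arm.
miR-139-3p: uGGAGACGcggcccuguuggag
miR-139-5p: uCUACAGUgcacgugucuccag
miR-212-5p: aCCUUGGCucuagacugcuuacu
miR-136-3p: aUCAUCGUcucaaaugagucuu
miR-7a-2-3p: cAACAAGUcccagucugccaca
miR-153-3p: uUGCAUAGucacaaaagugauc
miR-127-3p: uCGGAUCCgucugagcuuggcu

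The last set holds miRNAs that were lower in them, among them both arms of miR-9 and a pair with 1 seed, miR-27a-3p and miR-27b-3p.
miR-9-5p: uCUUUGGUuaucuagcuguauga
miR-9-3p: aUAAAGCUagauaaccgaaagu
miR-128-3p: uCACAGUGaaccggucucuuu
miR-27b-3p: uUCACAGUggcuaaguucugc
miR-27a-3p: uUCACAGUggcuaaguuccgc
miR-96-5p: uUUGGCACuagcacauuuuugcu
miR-182-5p: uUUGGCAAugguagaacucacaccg

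The neuron libraries held fewer kinds of miRNA than the tissue, with more of their reads in the leading few. They listed 215 to 312 miRNAs, against 598 and 631 in the SCN. At an equal depth of 469808 reads the numbers were 271.45 ± 36.65 (SD, n = 6 libraries) and 503.95 ± 2.19 (SD, n = 2), with all 6 neuron libraries (213.8 to 311.4) below both SCN libraries (502.4 and 505.5). The exact permutation test gave a two-sided p of 0.071, the smallest that 28 arrangements of the libraries allow. The order was not that of depth: the VIP libraries had 2812318 and 2786568 reads, more than SCN replicate 1, and listed 293 and 301 miRNAs. The 10 most abundant miRNAs took 74.53% to 81.12% of the reads in neurons and 65.91% and 67.07% in the SCN. miR-125a-5p led 5 of the 6 neuron libraries, and miR-127-3p led AVP replicate 2.

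**Figure D1:**
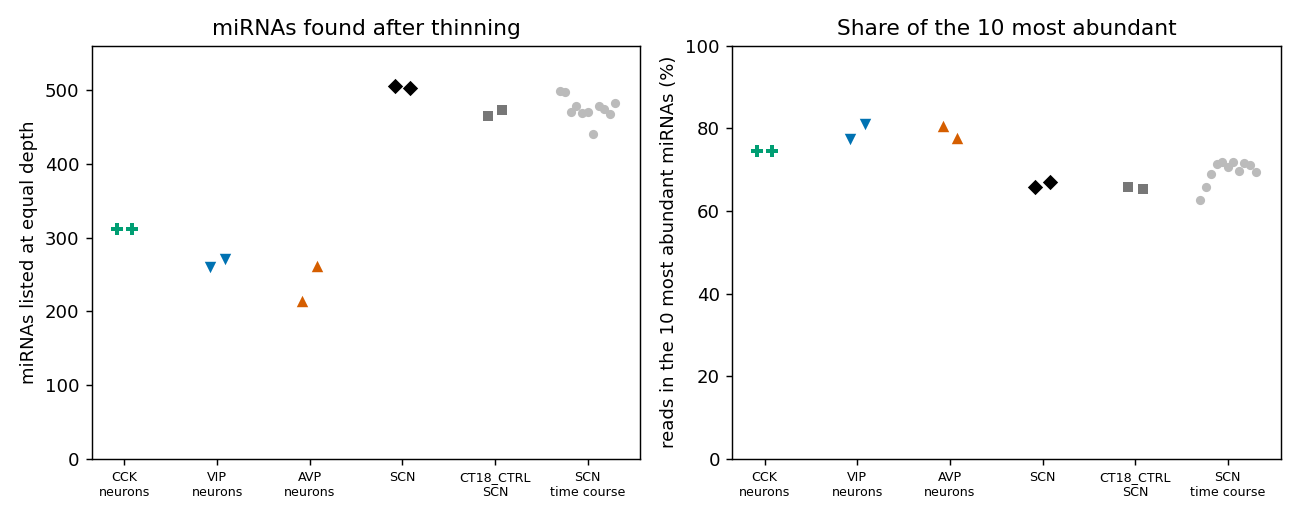
Number of miRNAs listed after thinning each library to 469808 reads (left) and share of reads in the 10 most abundant miRNAs in percent (right), 1 point per library, by group. The 6 neuron libraries list 213.8 to 311.4 miRNAs and lie below every whole-SCN library, and their leading 10 miRNAs take at least 74.53% of the reads.

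Of the 374 miRNAs, 29 were called higher in the neurons (7.75% of those tested) and 132 lower (35.3%), 161 in all (43.0%). In separate comparisons with the SCN, AVP neurons had 29 higher (7.75%) and 142 lower (38%), together 45.7% of the miRNAs. VIP neurons had 38 (10.2%) and 142 (38%), together 48.1%, and CCK neurons 22 (5.88%) and 81 (21.7%), together 27.5%. These 3 comparisons share the same 2 SCN libraries. In all 3 types at once, 11 were called higher and 58 lower. Without SCN replicate 1 the comparison over the 3 types gave 16 higher and 73 lower, and without replicate 2 it gave 15 and 76. With 1 mean for all 6 neuron libraries, so that differences between types count as error, 8 were higher and 59 lower. A share of the lower calls follows from the entry rule: 63 miRNAs reached 10 CPM in both SCN libraries and in fewer than 2 neuron libraries, and 51 of them were called lower. Among the 264 that reached it in at least 2 libraries on both sides, 25 were called higher (9.47%) and 77 lower (29.2%). Another 41 reached it in at least 2 neuron libraries and not in both of the SCN. Of these, 4 were called higher (9.76%) and 3 lower (7.32%).

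The balance of higher and lower calls depended on the scaling. The median log2 difference of all tested miRNAs was -1.46 on the deposited scale. Median-ratio scaling moved it by 0.345 to -1.11, with 33 higher and 110 lower calls. Quantile normalization moved it by 1.64 to 0.19, with 77 higher and 75 lower calls. A miRNA with a log2 difference between -1.46 and 0 was therefore lower as a share of its library but above the typical miRNA.

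The sub-experiments of whole SCN differed among themselves as well. Between the SCN and CT18_CTRL libraries, 202 of the same 374 miRNAs were called (54.0%), 119 higher and 83 lower in the SCN. Without SCN replicate 1 or 2 this count was 122 or 133. The count of calls therefore does not set the neurons apart from tissue of another sub-experiment. The sizes were unlike: the median absolute log2 difference was 1.60 for neurons against SCN and 0.75 for SCN against CT18_CTRL, and 110 and 66 called miRNAs passed a 4-fold difference. The median standard error was 0.55 in the first and 0.23 in the second. For this reason each leading result below is also set against the range of all 15 whole-SCN libraries. By that measure 7 miRNAs (1.87%) were higher in all 6 neuron libraries than in any of the 15, and 58 (15.5%) were lower. Against the 2 SCN libraries alone these numbers were 19 (5.08%) and 119 (31.8%).

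**Figure D2:**
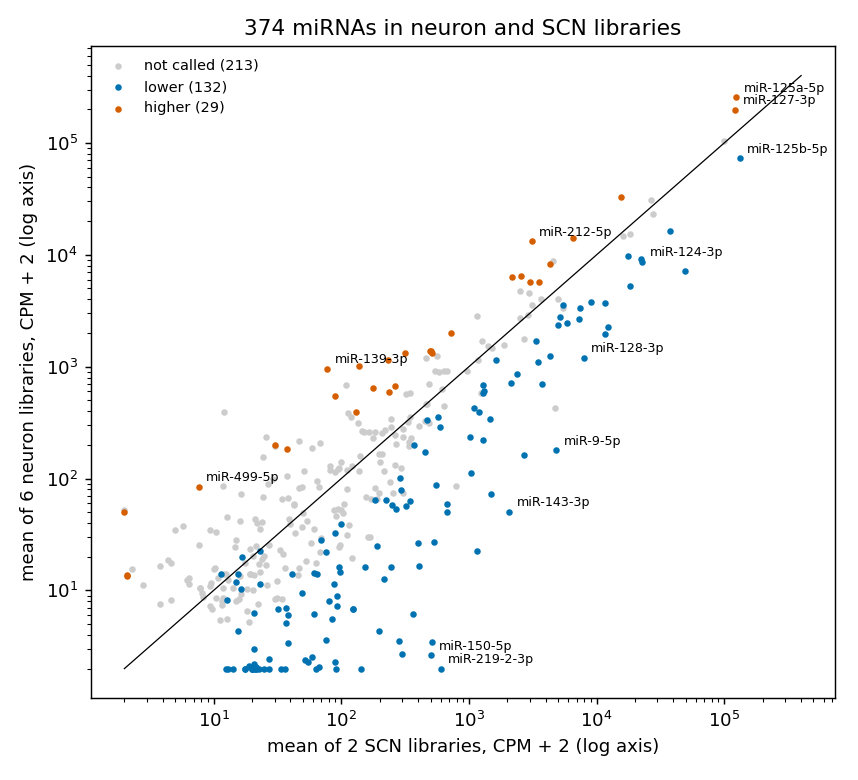
Mean level of each of the 374 tested miRNAs in the 2 SCN libraries (x axis) and the 6 neuron libraries (y axis), both as CPM + 2 on log axes, with the line of equal levels. The 29 miRNAs called higher lie above the line, among them miR-499-5p and miR-125a-5p. The 132 called lower reach down to miRNAs at 0 in all 6 neuron libraries.

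The 12 largest rises were led by miR-139-3p, the less abundant arm in tissue of a hairpin in an intron of Pde2a, a phosphodiesterase gene, at chr7:101475418-101475439 (plus strand). Its level was 1707 and 1055 CPM in AVP neurons, 758 and 663 in VIP neurons, 759 and 783 in CCK neurons, and 77 and 75 in the SCN. Every neuron library lay above every SCN library, on average 12.6-fold (log2 difference 3.53, SE 0.22, adjusted p = 9.46e-05), and the 15 whole-SCN libraries spanned 21.9 to 176 CPM. No other tested miRNA had a larger rise on the log2 scale.

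miR-212-5p was the most abundant of the 12. It comes from the hairpin next to miR-132 at chr11:75173403-75173425 (plus strand), a locus known for its response to neuronal activity and, in the SCN, to light. It was at 15449 and 22583 CPM in AVP neurons, 7318 and 7664 in VIP neurons, 13138 and 13638 in CCK neurons, and 3301 and 2889.5 in the SCN. The neurons averaged 13298 ± 5629.8 CPM (SD, n = 6), 4.30-fold the SCN mean (log2 difference 2.0, SE 0.16, adjusted p = 0.000317), and all 6 exceeded the 2415 to 6699 CPM of the 15 tissue libraries. The other products of the locus did not pass the test over the 3 types: miR-132-3p had a log2 difference of 0.75 (adjusted p = 0.12) and miR-212-3p of 0.51 (adjusted p = 0.39). Both were called higher in VIP neurons, where miR-132-3p reached 2916 and 1942 CPM against 499.9 and 613 in the SCN. The activity-regulated list as a whole had 1 of 6 tested members higher (miR-212-5p) and 0 lower, beside 7.75% and 35.3% of all miRNAs, with a median log2 difference of 0.63 beside -1.46.

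miR-136-3p, from the imprinted Dlk1-Dio3 region (chr12:109595366-109595387 (plus strand), opposite an exon of Rtl1), was at 5219.8 and 5973 CPM in AVP neurons, 9489 and 7001 in VIP neurons, 5409.9 and 4825 in CCK neurons, and 2405 and 1946 in the SCN. It was 2.91-fold higher in neurons (log2 difference 1.51, SE 0.17, adjusted p = 0.00106), and the lowest neuron library exceeded the highest of the 15 tissue libraries, 4681 CPM. miR-7a-2-3p, the passenger arm of a miR-7 hairpin at chr7:78888335-78888356 (plus strand) outside any other annotated gene, was at 423 and 537 CPM in AVP neurons, 347 and 317 in VIP neurons, 292 and 433 in CCK neurons, and 139 and 119 in the SCN (log2 1.56, adjusted p = 0.00367). It too lay above all 15, whose range was 74.9 to 248 CPM. So did miR-3475, at 109 to 299.9 CPM in neurons and 28.9 and 27.3 in the SCN (log2 2.59, adjusted p = 0.00277).

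The other 7 rose against the 2 SCN libraries but overlapped with the 15. miR-153-3p, a neuronal miRNA hosted in an intron of Ptprn2 that is known to act on synaptic vesicle genes, was at 351 and 540.4 CPM in AVP neurons, 900.3 and 379 in VIP neurons, 684 and 392 in CCK neurons, and 91.3 and 82 in the SCN (log2 2.53, adjusted p = 0.00533), and the time course reached 441. miR-499-5p, a muscle miRNA from an intron of Myh7b, was at 4.40 and 6.90 CPM in the SCN and 16.1 to 159.8 CPM in neurons. It entered the test only through the neuron libraries, so its levels are given without a test. The other 2 tested miRNAs of the striated muscle list were called lower, and both entered the test only through the SCN. miR-133a-3p was at 0 to 0.3 CPM in neurons and 21.3 and 17.3 in the SCN, and miR-1a-3p was at 0 CPM in 5 neuron libraries, 29.4 in VIP replicate 2 and 45.4 and 24.2 in the SCN. miR-3099-3p, from an intron of Usp29, differed by type, at 2069 and 2161 CPM in VIP neurons and 183 and 214 in AVP neurons against 133 and 141 in the SCN. It passed the test over the 3 types (log2 2.24, adjusted p = 0.00215) and in VIP and CCK neurons, and not in AVP neurons. The remaining rises were miR-323-5p (log2 2.18), miR-485-5p (2.13), miR-423-5p (1.94) and miR-323-3p (1.56). All but miR-423-5p of these come from the Dlk1-Dio3 region.

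Both of the most abundant neuron miRNAs also rose. miR-125a-5p was at 271349 and 230496 CPM in AVP neurons, 279079 and 394599 in VIP neurons, 183332 and 183743 in CCK neurons, and 127587 and 120530.2 in the SCN, 2.07-fold higher (log2 difference 1.0, SE 0.15, adjusted p = 0.00397), and all 6 neuron libraries exceeded the 159267 CPM that was the highest of the 15. miR-127-3p, which lies opposite Rtl1 at chr12:109592888-109592909 (plus strand), was at 235823 and 244384 CPM in AVP neurons, 231552 and 175581 in VIP neurons, 151880.2 and 148844 in CCK neurons, and 107325 and 137264 in the SCN, 1.62-fold higher (log2 0.68, adjusted p = 0.0162). Its neuron libraries also lay above all 15, but its difference was 0.00 under quantile normalization, which sets values by rank. miR-26a-5p, close to them in tissue, was at 35874 to 157273 CPM in neurons and 101317 and 99207 in the SCN and did not pass the test (log2 -0.13, adjusted p = 0.572).

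**Figure D3:**
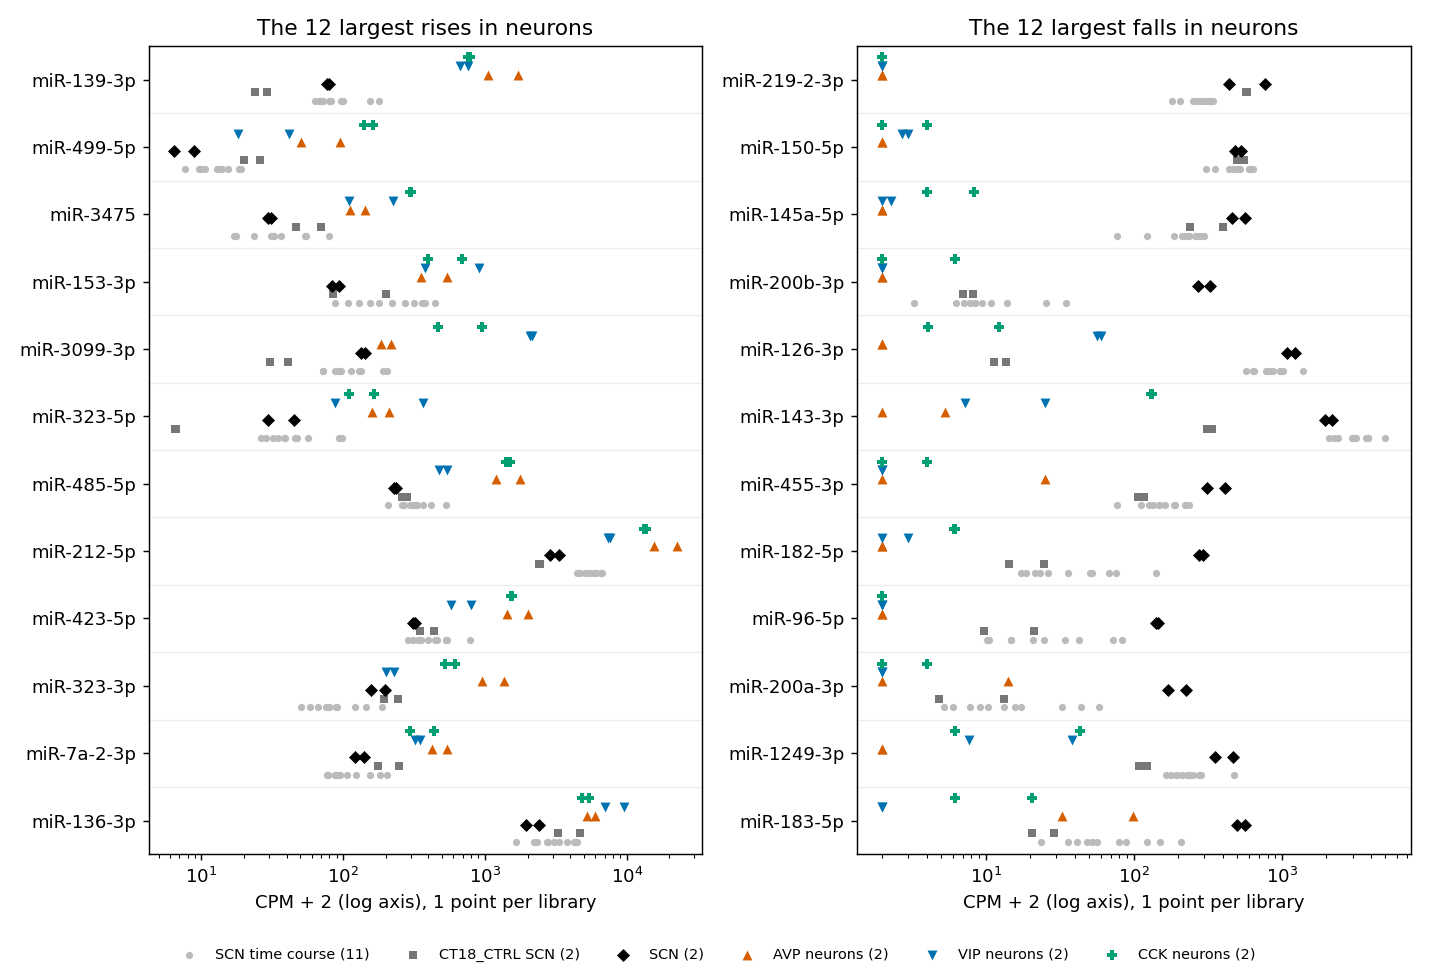
Level of the 12 largest rises (left) and 12 largest falls (right) as CPM + 2 on a log axis, 1 point per library, with a row of points for each group. All 6 neuron libraries lie outside the 2 SCN libraries for every miRNA shown. The CT18_CTRL and time course libraries reach the neuron levels for some, such as miR-200b-3p, and not for others, such as miR-219-2-3p and miR-139-3p.

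The 12 largest falls held miRNAs known from cells other than neurons and miRNAs of epithelial and sensory clusters. miR-219-2-3p, a product of a miR-219 hairpin best known from oligodendrocytes, had 0 reads in all 6 neuron libraries and 435 and 769 CPM in the SCN. With a floor of 3 reads in each neuron library, on average 3.93 CPM, it was at least 153-fold lower, and all 15 tissue libraries held at least 179.6 CPM. miR-150-5p, a miRNA of mature lymphocytes, was at 0 to 2 CPM in neurons and 483 and 528 in the SCN. miR-143-3p and miR-145a-5p, made from 1 cluster in smooth muscle and pericytes, were at 0 to 129.9 CPM against 2186 and 1962 and at 0 to 6.30 CPM against 458 and 565. All 4 were lower in each neuron library than in any of the 15 tissue libraries, as were miR-455-3p and miR-1249-3p. Of these, miR-219-2-3p, miR-150-5p, miR-145a-5p and miR-455-3p entered the test only through the SCN. Such miRNAs were mostly called lower (81.0%), so their levels are given without a test.

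miR-126-3p, hosted by the endothelial gene Egfl7, was at 0 and 0 CPM in AVP neurons, 57.6 and 54.2 in VIP neurons, 2.10 and 10.2 in CCK neurons, and 1079 and 1224 in the SCN. Its difference was -6.94 (adjusted p = 0.000401) against the SCN but -0.42 against CT18_CTRL, whose mean was 10.6 CPM. The fall of miR-126-3p therefore holds for the SCN and time course libraries and not for every library of whole SCN. In CT18_CTRL the 5p arm made up 95.98% to 97.02% of the reads of this hairpin, beside 11.55% and 7.51% in the SCN. The 2 arms summed to 293.3 to 311.8 CPM there, above the 0 to 70.8 CPM of the neuron libraries.

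The miR-200 family, of epithelial cells, and the cluster of miR-183-5p, miR-96-5p and miR-182-5p, typical of sensory cells and photoreceptors, stood low in neurons. All 5 tested members of the first and 2 of 3 of the second reached the test only through the SCN libraries, where such miRNAs were mostly called lower (81.0%), so only their levels are given. The summed levels were 0 to 12.1 CPM in neurons and 569.5 and 692.7 in the SCN for the first, and 0 to 97.0 against 912.0 and 999.9 for the second. In the time course the miR-200 sum was 10.8 to 131.7 CPM and in CT18_CTRL 9.9 to 30.3. The sum of the miR-183 cluster was 45.2 to 426.2 and 38.6 to 68.7 CPM there, which overlapped with the neurons. For both sums the 2 SCN libraries stood high among the tissue libraries. miR-96-5p had 0 reads in all 6 neuron libraries and 139.9 and 143 CPM in the SCN, at least 36-fold more, and was listed in all 15 (7.80 to 143 CPM). miR-182-5p was at 0 to 4.20 CPM against 12.3 to 293 CPM in the 15. miR-200b-3p was at 0 to 4.20 CPM, which overlapped with the 1.30 to 324 CPM of the 15, as did miR-200a-3p, miR-200c-3p and miR-183-5p.

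Several miRNAs that mark neurons in brain tissue were lower in the neuron libraries. The neuronal list had 17 tested members, of which 2 were called higher and 6 lower, a share of lower calls equal to that of all miRNAs (35.3%). Its median log2 difference was -1.65 beside -1.46 for all 374, and 0.55 under quantile normalization beside 0.19. miR-9-5p, a miRNA of neural progenitors and neurons made from 3 loci, was at 233 and 453 CPM in AVP neurons, 10.3 and 39.1 in VIP neurons, 115 and 214 in CCK neurons, and 4387 and 5278 in the SCN. That is 27.2-fold lower (log2 difference -5.51, SE 0.56, adjusted p = 0.000812), and every neuron library lay below the lowest of the 15 tissue libraries, 2134 CPM. Its other arm, miR-9-3p, was at 21.3 to 430.4 CPM against 3005 and 2385 (log2 -4.54, adjusted p = 0.00158), again below all 15.

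miR-124-3p, the miRNA most typical of differentiated neurons, was at 3679 and 2378 CPM in AVP neurons, 13877 and 10699.6 in VIP neurons, 9983 and 11436 in CCK neurons, and 21515 and 24162 in the SCN (log2 difference -1.65, SE 0.20, adjusted p = 0.00173). It was lower in each of the 3 types and in every neuron library than in any of the 15, whose range was 21515 to 48159 CPM. miR-128-3p, which is enriched in neurons and limits their excitability, was at 98.8 and 35.2 CPM in AVP neurons, 3619.8 and 2369 in VIP neurons, 535 and 553 in CCK neurons, and 7056 and 8861 in the SCN (log2 -4.10, adjusted p = 0.000719). Its levels separated the types, with AVP neurons lowest and VIP neurons highest. These 4 falls kept their sign under median-ratio and quantile scaling and against CT18_CTRL and the time course, between -1.06 and -6.50. miR-149-5p fell too, through VIP neurons (231 and 101 CPM against 8039.9 and 6529). In the other direction went miR-153-3p, above, and miR-129-5p, at 388 to 3190.0 CPM against 493 and 525 (log2 1.03, adjusted p = 0.0461), where VIP replicate 2 lay below both SCN libraries.

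**Figure D4:**
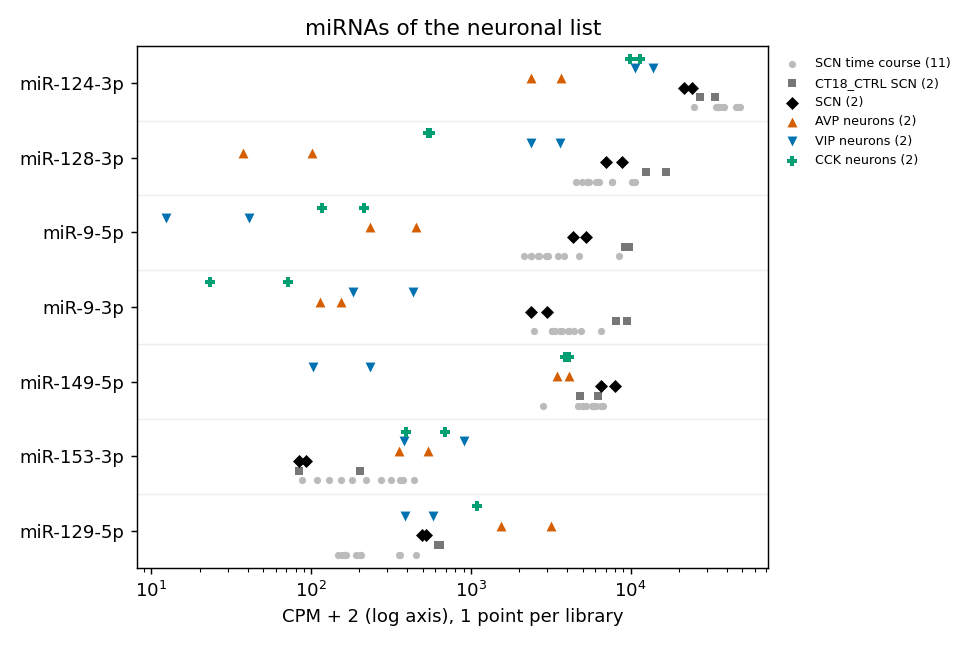
Level of 7 miRNAs of the neuronal list as CPM + 2 on a log axis, 1 point per library. For miR-124-3p, miR-128-3p, miR-9-5p and miR-9-3p all 6 neuron libraries lie below all 15 whole-SCN libraries, while miR-153-3p and miR-129-5p overlap with some of them.

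Within families of shared seed some members moved apart. miR-99b-5p, let-7e-5p and miR-125a-5p are made from 1 short cluster within Spaca6, at chr17:17830194-17830215 (plus strand), chr17:17830366-17830387 (plus strand) and chr17:17830817-17830840 (plus strand). Their closest relatives are miR-99a-5p, miR-100-5p, let-7c-5p and miR-125b-5p. Paralogous clusters on other chromosomes hold them, with miR-99a-5p at chr16:77598940-77598961 (plus strand) and miR-100-5p at chr9:41531437-41531458 (plus strand). let-7c-5p has 2 loci, however, and 1 of them lies outside these clusters. Its hairpin, let-7c-2 (3p arm at chr15:85706664-85706685), is beside let-7b-5p (chr15:85707325-85707346). As the ratios below are taken within a library, they do not change with its scaling. They were chosen after the values were seen and are given without a test. Of 9 such ratios computed, 6 lay above all 15 tissue libraries in every neuron library. The other 3 overlapped: miR-30a-5p over miR-30c-5p was 0.579 to 6.75 in neurons and 0.232 to 0.586 in the 15, miR-212-5p over miR-132-3p was 2.51 to 52.1 and 2.80 to 27.3, and miR-92b-3p over miR-92a-3p was 5.22 to 32.7 and 3.48 to 7.57.

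The ratio of miR-125a-5p to miR-125b-5p was 6.37 and 7.17 in AVP neurons, 3.58 and 6.22 in VIP neurons and 1.70 and 1.63 in CCK neurons, against 0.926 and 0.946 in the SCN. All 6 neuron libraries lay above the 15 tissue libraries, which spanned 0.718 to 1.17. The ratio of miR-99b-5p to miR-99a-5p was 9.75 and 6.89 in AVP neurons, 3.19 and 4.10 in VIP neurons and 2.70 and 2.61 in CCK neurons, against 0.553 and 0.533 in the SCN, and the 15 spanned 0.318 to 0.901. So in tissue the member from the Spaca6 cluster was the scarcer of this pair, and in all 6 neuron libraries it was the more abundant. The ratio of miR-99b-5p to miR-100-5p was 8.38 to 56.2 in neurons and 1.16 to 2.76 in the 15. The ratio of let-7e-5p to let-7c-5p was 1.29 and 0.468 in AVP neurons, 4.35 and 3.28 in VIP neurons and 0.898 and 0.872 in CCK neurons, against 0.278 and 0.304 in the SCN, again outside the 0.209 to 0.304 of the 15. For each of these 4 ratios AVP, VIP and CCK libraries all lay on the same side.

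In levels over the 3 types, the 4 relatives fell, miR-125a-5p and let-7e-5p rose, and miR-99b-5p did not pass the test. The 3 members of the Spaca6 cluster did not move together in each type: let-7e-5p was lower in AVP neurons (log2 -1.78), where miR-99b-5p was higher (0.82), and higher in VIP neurons (1.94), where miR-99b-5p was lower (-0.62). miR-99a-5p was at 4729 and 6873 CPM in AVP neurons, 4474 and 5083 in VIP neurons, 10749.6 and 11082 in CCK neurons, and 49615 and 48082 in the SCN, 6.82-fold lower (log2 difference -2.87, SE 0.16, adjusted p = 5.96e-05). miR-100-5p was at 821 to 3334 CPM against 11159 and 12005 (log2 -2.74, adjusted p = 2.86e-05), and miR-125b-5p at 32139.5 to 112421 CPM against 137781 and 127363 (log2 -1.01, adjusted p = 0.00311). All 3 lay below the 15 tissue libraries in every neuron library. miR-99b-5p was at 14288 to 47358 CPM against 27451 and 25645 and did not pass the test (log2 0.11, adjusted p = 0.597).

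**Figure D5:**
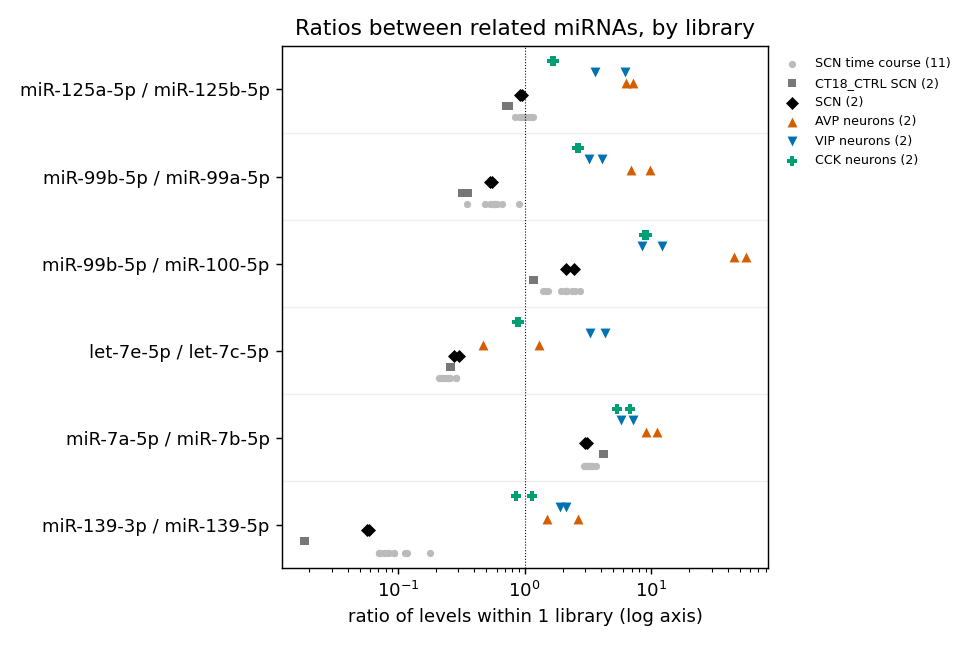
Ratio of the levels of 2 related miRNAs within each library, on a log axis, 1 point per library. The 6 ratios shown are those, of 9 computed, in which all neuron libraries lie above the 15 whole-SCN libraries. The dotted line marks equal levels, which the miR-99b-5p to miR-99a-5p ratio crosses between tissue and neurons.

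The let-7 family, repressors of growth and cell cycle genes, held members called in both directions and differed between types. Of the tested miRNAs, 9 hold the let-7 seed, and let-7e-5p and let-7f-5p were called higher, 5 lower and 2 neither. let-7f-5p was at 8376 and 11729 CPM in AVP neurons, 51472 and 48685 in VIP neurons, 39843 and 37776 in CCK neurons, and 15645 and 15609.5 in the SCN (log2 0.78, adjusted p = 0.00746), higher in VIP and CCK neurons and lower in AVP neurons. Against CT18_CTRL its sign turned (-0.49), and the difference of let-7e-5p, 0.50 against the SCN, was -0.002. let-7d-5p, at 1159 to 4242 CPM against 5655 and 6119, and let-7i-5p, at 921 to 2636 CPM against 3259 and 3457, were lower in all 6 libraries than in both SCN libraries. Both overlapped with the 15 whole-SCN libraries. let-7c-5p was at 1442 to 19149 CPM against 19649.6 and 24660.0 (log2 -1.74, adjusted p = 0.0202).

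miR-7, a family high in hypothalamic neuroendocrine cells, gave differences whose sign depended on the tissue libraries. miR-7a-5p was at 13983 and 19494 CPM in AVP neurons, 9963 and 11911 in VIP neurons, 21617 and 20203 in CCK neurons, and 39038 and 36215 in the SCN (log2 -1.27, adjusted p = 0.00164), and miR-7b-5p at 1543 to 3789.9 CPM against 12524 and 12061 (log2 -2.52, adjusted p = 2.86e-05). CT18_CTRL held 1999 CPM of miR-7a-5p on average, and against it the sign turned, to 2.98 for miR-7a-5p and 2.19 for miR-7b-5p. Against the time course miR-7a-5p differed by 0.07. The ratio of miR-7a-5p to miR-7b-5p, which share a seed, was 5.33 to 11 in neurons and 2.95 to 4.22 in the 15 tissue libraries.

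In the clusters of miR-23, miR-27 and miR-24, found in many tissues and abundant in vessels and glia, 4 of 6 tested members were lower and 0 higher, beside 35.3% and 7.75% of all miRNAs, with a median log2 difference of -2.33 beside -1.46. miR-27b-3p was at 6606 and 5525 CPM in AVP neurons, 87.5 and 146 in VIP neurons, 4943 and 5505 in CCK neurons, and 9005 and 8924 in the SCN (log2 -2.54, adjusted p = 0.000349). Its fall came from VIP neurons, although all 6 libraries lay below the 15 (7955 to 12512 CPM), and it was called in VIP neurons and not in AVP or CCK neurons. miR-27a-3p, with the same seed, was at 1.70 to 118 CPM against 370.2 and 322, and lowest in VIP neurons too. miR-24-3p fell by 2.11 against the SCN, and its sign turned against CT18_CTRL (4.44), where its mean was 44.7 CPM.

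The miR-30 family had 1 of 11 tested members higher (miR-30a-5p) and 2 lower. These counts, and those of the miR-29 and miR-17 groups that follow, stand beside 7.75% higher and 35.3% lower of all miRNAs. miR-30c-5p was at 1235 to 8347 CPM against 20436 and 16289.9 (log2 -2.08, adjusted p = 0.00393) and below all 15. miR-30a-5p was at 4412 to 11692 CPM against 4735 and 3934 (log2 0.85, adjusted p = 0.00909), and its sign turned against CT18_CTRL (-0.15). In the miR-29 family 2 of 4 were lower. They were miR-29b-2-5p, which entered the test only through the SCN, and miR-29a-3p (log2 -1.04, adjusted p = 0.00132). The sign of miR-29a-3p also turned against CT18_CTRL (3.76). Of the clusters around miR-17 and miR-92a, 1 of 10 was higher (miR-92b-3p, at 2403 to 9092 CPM against 2989.9 and 2132) and 1 lower (miR-93-5p, at 0 to 2 CPM against 45.8 and 68.9). miR-93-5p entered the test only through the SCN.

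The miRNAs of the imprinted Dlk1-Dio3 region, which are expressed from the maternal chromosome and mainly in neurons and placenta, were mostly not called in either direction. Of 69 tested members of its 2 clusters, 9 were called higher (13%), 6 lower (8.70%) and 54 neither, beside 7.75% and 35.3% of all miRNAs. Of the 6 called lower, miR-3072-3p entered the test only through the SCN. The median log2 difference of the 69 was -0.27 beside -1.46. The summed level of the cluster from miR-127 to miR-136 was 185995 to 285247 CPM in neurons, above the 137586 and 162373 of the SCN, and most of it was miR-127-3p. Against CT18_CTRL, where that sum was 53391 to 57471, the gap was wider. Besides those named above, miR-434-5p was at 4701 to 8226 CPM against 3202 and 2791 (log2 0.92, adjusted p = 0.00696), while its partner arm miR-434-3p overlapped with the SCN (7567 to 18995 CPM against 17841 and 14445). miR-409-3p was higher (log2 1.19, adjusted p = 0.0215) and so was miR-541-5p (log2 0.61, adjusted p = 0.0162), but the latter differed by -0.32 against the time course.

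Of the 8 tested miRNAs on the list of those enriched in SCN tissue, 5 were lower in neurons, 1 was higher (miR-3099-3p) and 2 were not called, beside 35.3% lower and 7.75% higher of all miRNAs. Of the 5, miR-375-3p and miR-455-3p entered the test only through the SCN. That list was drawn up from earlier results on these tissue libraries, so its direction is no independent evidence. miR-375-3p, a miRNA of endocrine cells, was at 0 in 5 neuron libraries and at 31.9 CPM in AVP replicate 2, against 92.6 and 88.4 in the SCN. From introns of the serotonin receptor gene Htr2c, miR-1264-3p was at 0 in AVP neurons, 39.5 and 39.8 CPM in VIP neurons and 141 and 154 in CCK neurons, against 199 and 167. miR-448-5p from the same gene was at 0 in all 6 and at 14.7 and 16.4 CPM in the SCN.

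Markers of other cell types mostly stood lower in the neuron libraries, and in bulk samples fewer cells of a type and less RNA per cell cannot be told apart. Pericyte and smooth muscle miRNAs were lower in 3 of 3 tested, beside 35.3% of all miRNAs, but miR-145a-5p and miR-145a-3p entered the test only through the SCN. The summed level of the list was 0 to 136.2 CPM in neurons and 2592.7 to 2722.0 in the SCN. Microglia and leukocyte miRNAs were lower in 2 of 3, of which miR-150-5p entered only through the SCN, with sums of 116.9 to 468.7 and 2084.7 to 2297.7 CPM. miR-146a-5p, of activated microglia, was at 0 to 157 CPM against 1409 and 1543, and miR-21a-5p overlapped with the SCN (29.1 to 420.2 CPM against 189.8 and 220.4). The endothelial sum was 0 to 70.8 CPM against 1219.5 to 1323.1.

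Not every marker list followed this order against the 2 SCN libraries. For oligodendrocytes, miR-338-3p was at 134 and 20.9 CPM in AVP neurons, 595 and 242 in VIP neurons, 443 and 509 in CCK neurons, and 387 and 516 in the SCN and did not pass the test (log2 -1.05, adjusted p = 0.304), nor did miR-338-5p. Both were called lower in AVP neurons, while VIP and CCK neurons held them at 242 CPM or more for miR-338-3p, although miR-219-2-3p was at 0 throughout. The 2 SCN libraries stood low among the tissue libraries for the summed oligodendrocyte list, at 568.8 and 782.2 CPM. The sum was 899.2 to 1102.7 CPM in CT18_CTRL and 1044.5 to 1830.5 in the time course. Of the neuron libraries only VIP replicate 1, at 1249.1 CPM, reached these ranges. Of the choroid plexus and ciliated cell list 5 of 6 were lower, beside 35.3% of all miRNAs and with miR-211-5p and miR-34c-3p entering only through the SCN, among them miR-34b-3p (0 to 51.1 CPM against 281 and 144), miR-34c-5p and miR-34c-3p, both below all 15, and miR-211-5p, at 0 in all 6. Its most abundant member, miR-204-5p, was however at 76.4 and 81.6 CPM in AVP neurons, 9453 and 7563 in VIP neurons, 1255 and 1647 in CCK neurons, and 7045 and 7909.8 in the SCN. VIP neurons were thus at the level of the 2 SCN libraries, but not of the other tissue libraries. The summed level of the whole list was 1975.7 to 2880.4 CPM in CT18_CTRL and 3658.6 to 6115.2 in the time course. Both VIP libraries exceeded these sums by miR-204-5p alone. Erythrocyte miRNAs split: miR-451a was at 0 to 16.7 CPM against 33.8 and 25.6 (log2 -2.96, adjusted p = 0.000359), while miR-486-5p was at 930.3 to 2164 CPM against 544 and 454 (log2 1.39, adjusted p = 0.000846). miR-486-5p is listed at nearly the same values as miR-3107-5p, its near-identical copy, and reads of the pair cannot be assigned to either. The summed level of the erythrocyte list, mostly this pair, was 1897.8 to 4326.2 CPM in neurons. It was 1230.6 to 1399.1 CPM in CT18_CTRL and 1763.4 to 2761.1 in the time course. VIP and CCK libraries lay within the range of the time course, and AVP libraries above it. What part these lists have in the other differences was not tested.

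The ratio of the 2 arms of a hairpin passed the test in 3 of 90 hairpins (3.33%), of which miR-139 alone had both arms listed in all 8 libraries. In miR-139 the 5p arm made up 94.59% and 94.39% of the hairpin's reads in the SCN, and at most 54.04% in neurons. The share was 27.61% and 40.10% in AVP neurons, 34.64% and 31.93% in VIP neurons and 46.70% and 54.04% in CCK neurons (log2 difference of the 3p to 5p ratio 4.72, SE 0.51, adjusted p = 0.00781). The time course spanned 84.88% to 93.44% and CT18_CTRL 98.18% to 98.21%, so no neuron library overlapped with tissue. Both arms moved: miR-139-3p rose, above, and miR-139-5p was at 311 to 920.2 CPM against 1347 and 1263 (log2 -1.19, adjusted p = 0.00457). The levels of miR-139-5p overlapped with those of the 15 whole-SCN libraries. In the other 2 an arm was at 0 in some groups, so that the pseudocount sets the ratio there, and both overlapped with the time course. The 3p arm of miR-361 was at 0 in AVP and VIP neurons, at 19.1 and 22.5 CPM in CCK neurons and at 85.1 and 94.8 in the SCN. Its 5p share of 99.16% and 99.20% in CCK neurons lay within the 99.01% to 99.66% of the time course. The 5p arm of miR-342 was at 0 in AVP and CCK neurons and in the SCN, and its share in VIP neurons, 2.53% and 1.28%, overlapped with the 0.29% to 1.78% of the time course, so no change over the 3 types is read from it. Without either SCN library 0 hairpins passed, so these 3 calls rest on having both.

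Where the types disagreed, the mean over the 3 hides it. Between the 3 types, 154 of 374 miRNAs differed (limma F-test, adjusted p below 0.05, 41.2%), and 8 were called in opposite directions against the SCN in different types. miR-409-5p was at 14688 and 17274 CPM in AVP neurons, 308 and 347 in VIP neurons, 10243 and 10316 in CCK neurons, and 4579 and 4589 in the SCN, so higher in AVP and CCK neurons and lower in VIP neurons. let-7e-5p was at 1859.9 and 1875 CPM in AVP neurons, 22380.3 and 27029.7 in VIP neurons, 17191 and 15168 in CCK neurons, and 5467 and 7491 in the SCN, lower in AVP neurons and higher in the others. VIP neurons were lowest for miR-370-3p, at 560.3 and 246 CPM against 2800.1 and 2252 in the SCN and 5201 to 9447 in the other neurons. VIP neurons were lowest for miR-298-5p too, with 845 and 355 CPM in VIP neurons, 3196 and 2698 in the SCN and 3133 to 10458 in the others, where CCK replicate 2 lay below SCN replicate 1. CCK neurons were nearest to tissue, with a median absolute log2 difference of 1.27 beside 2.22 in AVP and 2.38 in VIP neurons. Leaving out a whole type kept the counts within 27 to 37 higher and 127 to 145 lower.

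GC content and seed were compared with the direction. Of the miRNAs with a RefSeq sequence, the 25 called higher had a median GC content of 50%, the 109 called lower 47.6% and all 320 had 47.8%. Across these 320 miRNAs, which share libraries, GC content and the log2 difference had a Pearson correlation of -0.05 and a Spearman correlation of -0.06. The first base was U in 48% of those called higher, 52.3% of those called lower and 37.1% of those not called, which was not tested. The seeds of let-7, of miR-125a-5p and of miR-30a-5p each held miRNAs called higher and miRNAs called lower.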

How the data were processed

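For each mature miRNA the authors deposited a normalized signal. Its values are whole multiples of 1 step in each library, rounded down. They were read as numbers of reads brought to about 10000000 for the library. Their sums were 10006639 to 10021510 in the 8 libraries. Per the submitters' processing notes, Bowtie and the builds GRCm38 and mm10 were named, without a version or role. Per the labels' protocols, frozen tissue was extracted with Trizol and libraries followed Illumina protocols, and the step that isolated the neurons is not given in the sources used here. A miRNA not listed was taken as 0. CPM is the deposited value divided by 10. Reads per library were read from the step between values, and a floor of 3 reads in each library gave the bounds, for counting error only. PCR reads without molecular identifiers are not independent molecules.

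limma-trend (limma 3.58.1, R 4.3.3) was fitted to log2(value + 20), that is CPM + 2, over the 374 miRNAs with a value of at least 100 in at least 2 of the 8 libraries, with a mean for each of AVP, VIP, CCK and SCN. p-values were two-sided and adjusted by Benjamini-Hochberg over all 374, with a threshold of 0.05. Arm ratios were fitted likewise over 90 hairpins. The script was tested on simulated data. Named were the 12 largest rises and falls with groups that do not overlap and at least 50 CPM in the higher group, the 10 most abundant miRNAs of each side, up to 4 per list, and miRNAs called in opposite directions between types. Other names were chosen after their values were seen. Members and lists were chosen with earlier results of these data known. Positions and overlapping genes come from RefSeq and GENCODE M21 on GRCm38. Hypothalamus, cortex and CT18_LP libraries were not used.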

Additional observations from a re-analysis of the deposited data

Results flagged for a closer look

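Differences between the 3 neuron types under the same contrast marked 8 miRNAs, each called in opposite directions against the SCN in at least 2 types. The p-values are those of a test of the difference between types (limma F-test, adjusted over 374 miRNAs). As the 8 were picked by their calls in the same fit, small p-values follow from that choice and are no separate evidence. The value given for each is the gap between the highest and lowest of the 3 log2 differences. The gap was 5.60 for miR-409-5p (AVP 1.80, VIP -3.80, CCK 1.17, adjusted p = 2.73e-05) and 3.72 for let-7e-5p (AVP -1.78, VIP 1.94, CCK 1.33, adjusted p = 0.000294). For let-7f-5p it was 2.34 (AVP -0.66, VIP 1.68, CCK 1.31, adjusted p = 0.00141). miR-23b-3p had a gap of 4.73 (AVP -2.54, VIP 2.19, CCK -1.87, adjusted p = 0.00332), from 1697 and 1461 CPM in VIP neurons to 35.2 to 119 in the other 4 neuron libraries.

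The other 4 rest on low levels in tissue. All 4 entered the test through neuron libraries, without 10 CPM in both of the SCN, and their p-values carry this limit too. miR-154-3p had a gap of 6.87 (adjusted p = 0.00141), at 346 and 155 CPM in VIP neurons, 0 in the others, and 9.80 and 10 in the SCN. miR-376c-3p had a gap of 4.28 (adjusted p = 0.00427), at 0 in AVP neurons and 5.30 and 6.20 CPM in the SCN. miR-25-5p had a gap of 4.61 (adjusted p = 0.000263) and miR-301a-5p of 4.19 (adjusted p = 0.00173), both listed in CCK neurons and at 0 in AVP and VIP neurons. No labelled group had 4 to 10 libraries in this comparison, so single libraries were not screened for standing apart.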

How the results depend on the processing

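Of the 69 named miRNAs called over the 3 types, all kept their sign, where tested, under either pseudocount, either filter, median-ratio scaling, the replicate block, 1 mean for all 6 neuron libraries and leaving out any library. Without SCN replicate 1 or 2, 19 and 20 of them no longer passed, and 37 did not with 1 mean for the 6 neuron libraries.

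Higher calls (29) became 77 under quantile normalization, 8 with 1 mean for all neurons, 48 against CT18_CTRL and 50 against the time course, and 15 to 32 when a library was left out. Lower calls (132) became 251 without a filter, 74 with a minimum of 1000, 75 under quantile normalization, 59 with 1 mean and 215 against the time course, and 73 to 148 when a library was left out. AVP calls (171) were 287 without a filter, 257 against the time course and 105 to 182 with a library left out. VIP calls (180) were 297 without a filter, 117 with the minimum of 1000 and 112 to 205 with a library left out. CCK calls (103) were 218 without a filter, 56 with the minimum of 1000, 195 against the time course and 63 to 124 with a library left out. Arm calls (3) were 9 with a pseudocount of 1, 43 of 232 hairpins without a filter, 13 against CT18_CTRL, 47 against the time course and 0 to 11 with a library left out. At the 0 calls of limma without SCN replicate 1 or 2, 6 and 5 hairpins had an unadjusted p under 0.05. The calls between SCN and CT18_CTRL (202) were 131 with the minimum of 1000 and 122 to 194 with a library left out. The difference in miRNAs listed at equal depth (-232.5) was -240.5 to -221.0 with a library left out, and -204.0 against the time course, where the exact permutation p was 0.000162.

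The sign turned against CT18_CTRL for let-7f-5p (-0.49), miR-7a-5p (2.98), miR-7b-5p (2.19), let-7e-5p (-0.002), miR-30a-5p (-0.155), miR-29a-3p (3.76) and miR-24-3p (4.44), and calls opposite in sign to an uncalled difference arose for miR-409-5p (3.78) and miR-298-5p (1.31). Against the time course it turned for miR-7a-5p (0.071) and miR-541-5p (-0.315), and opposite calls arose for miR-370-3p (-0.594) and miR-298-5p (0.841). A pseudocount of 1 gave miR-25-5p -1.78, and quantile normalization gave miR-154-3p 2.22 and miR-301a-5p 1.22. The cause was not tested.

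Deviations of equal-numbered libraries correlated at -0.082 to 0.054, so no shared effect of the replicate number was seen. Whether equal-numbered libraries were prepared together is not given in the sources used here. With a replicate block there were 25 higher and 116 lower calls. Count models, intended at first for 2 more settings, were not run. The files hold scaled values, and a check of units did not accept the reads recovered from them for all columns. Depths, numbers listed at equal depth and the floors of 3 reads rest on these recovered reads. At a depth of 469808 reads, 3 reads stood at 6.39 CPM in the shallowest neuron library, so lower levels there rest on fewer than 3 reads.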
